A study of Arabidopsis thaliana with 10 samples.

Results

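In whole Arabidopsis thaliana seedlings, 259 probe sets were lower after far-red light ahead of white light than after a pretreatment labelled D. This held in 2 genotypes, gun1gun5 and wild type (WT), and in WT the medium differed as well. The set was chosen from 22810 probe sets on the ATH1 array, a single-colour oligonucleotide array. Of the 22810, 13644 non-control probe sets passed a filter on the mean log2(intensity + 16) over the 10 arrays and are called tested here. For a member, the mean after far-red light (FR) minus the mean of the D arrays was at most -0.8 on that log2 scale in both genotypes. Both FR arrays also lay below both D arrays in each genotype. All these criteria were met by 268 tested probe sets (1.96%), and the rule left out 9 of them by name, which were LHCB4.2, LHCB4.3, JAL22, ATPMEPCRD, EXPA8, XTH32, AT4G23670, AT4G23680 and AT3G26450. Because FR and D values of gun1gun5 and WT made the choice, those differences are given below as a description, with no test.

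RNA came from pools of 300 young seedlings with cotyledons, hypocotyl and primary root, grown at 22 degrees C under continuous lighting, and every group ended in white light. The phyA group is a phyA-null mutant with 1 FR array and 1 D array. The gun1gun5 group is a gun1,gun5 double mutant with 2 FR arrays and 2 D arrays, and WT is Col-0 with 2 of each. Medium without sucrose was labelled for both phyA arrays, all gun1gun5 arrays and both WT_FR arrays. Both WT_D arrays were labelled with 1.5% sucrose, and WT_D replicate 2 also with 5 micromolar norflurazon, so pretreatment and medium cannot be told apart in WT, whereas the gun1gun5 labels give 1 medium for FR and D. The labels do not say what D stands for, do not give the parent line of either mutant, and do not say whether replicates came from separate cultures, so errors and p-values measure the spread between these arrays.

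Phytochrome A is the photoreceptor through which etiolated Arabidopsis seedlings sense continuous far-red light. Far-red light lets seedlings de-etiolate in part while protochlorophyllide is not converted to chlorophyll, and seedlings kept in it for long fail to green when moved to white light. GUN1, a plastid protein, and GUN5, a subunit of magnesium chelatase, act in signalling from damaged plastids to the nucleus, and gun mutants keep expressing nuclear photosynthesis genes when plastids are impaired.

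The arrays were alike in their overall distribution. Array medians lay between 35.6 and 40.4 intensity units, and 29.0% to 32.3% of an array's values were under 16. Replicate arrays had Spearman correlations of 0.979 to 0.983 over all probe sets on the array. A 25S rRNA control probe varied from 314.8 to 3003.8 between arrays. Probe sets for PHYA, GUN1 and GUN5 were not named in the annotation used here, so the mutated genes were not checked.

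The 259 members were lower on the gun1gun5_FR and WT_FR arrays than on the other arrays. Their median level was 172.9 intensity units in phyA_FR, against 226.5 in phyA_D. In gun1gun5 it was 53.9 and 54.5 in FR, against 134.8 and 186.5 in D. In WT it was 60.2 and 66.5 in FR, against 230.9 and 203.3 in D. The phyA_FR median lay among those of the gun1gun5 and WT D arrays and above those of their FR arrays. This position is a description only, since the rule chose members to be low in FR and high in D in gun1gun5 and WT. The median over all tested probe sets stayed within 0.03 log2 units of its 10-array mean on every array. In whole seedlings, fewer cells of a type and less RNA per cell cannot be told apart.

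**Figure D1:**
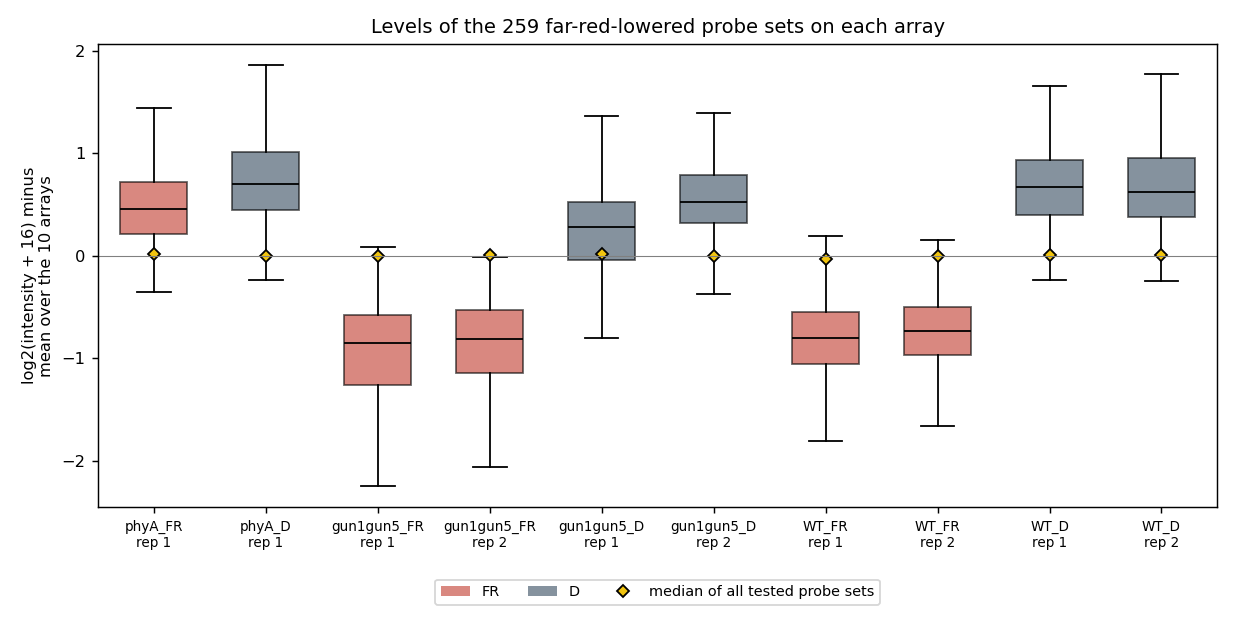
Level of the 259 members on each array as log2(intensity + 16) minus each probe set's mean over the 10 arrays. Boxes show the quartiles and median, whiskers the range without outlying values, and diamonds the median of all 13644 tested probe sets; the members' median is -0.85 and -0.81 in gun1gun5_FR and -0.80 and -0.73 in WT_FR, but 0.45 in phyA_FR.

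The D arrays of gun1gun5 differed from each other. Replicate 2 was higher than replicate 1 by a median of 0.30 log2 units over the members, against -0.01 over all tested probe sets, while the WT_D arrays differed by -0.03. The 25S rRNA control probe also differed between these gun1gun5_D arrays, with 376.7 in replicate 1 and 3003.8 in replicate 2, and its part in the members' difference was not tested. Set against D replicate 1 alone, the median gun1gun5 difference was -1.02 and 197 members were at most -0.8. Set against D replicate 2 alone, it was -1.34 and 251 members were. WT differed little in this way, with medians of -1.39 and -1.41 against D replicate 1 and D replicate 2, of which replicate 2 was labelled with norflurazon. Single members did differ between the WT_D arrays. Taken without sign, the members' median difference between D replicates was 0.23 in WT, against 0.32 in gun1gun5.

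The rule's own differences had a median of -1.18 in gun1gun5 and -1.36 in WT. Of all tested probe sets, 3.22% had a difference of at most -0.8 in gun1gun5 and 4.99% in WT, and both FR arrays lay below both D arrays in 31.2% and 31.6% of them, numbers from which nothing is read since the rule used them. In 153 members both genotypes differed by 2-fold or more and in 17 by 4-fold or more. WT had the larger drop in 168 members, but 184 had drops within 0.5 log2 units of each other. Across the members the drops in gun1gun5 and WT were loosely related (Spearman rho 0.46, Pearson r 0.59, n = 259 probe sets from the same arrays). In 233 of 259 members, against 1502 of 13644 tested probe sets, all 4 FR arrays of both genotypes lay below all 4 D arrays. Nothing is read from this count either, since the rule used these arrays.

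**Figure D2:**
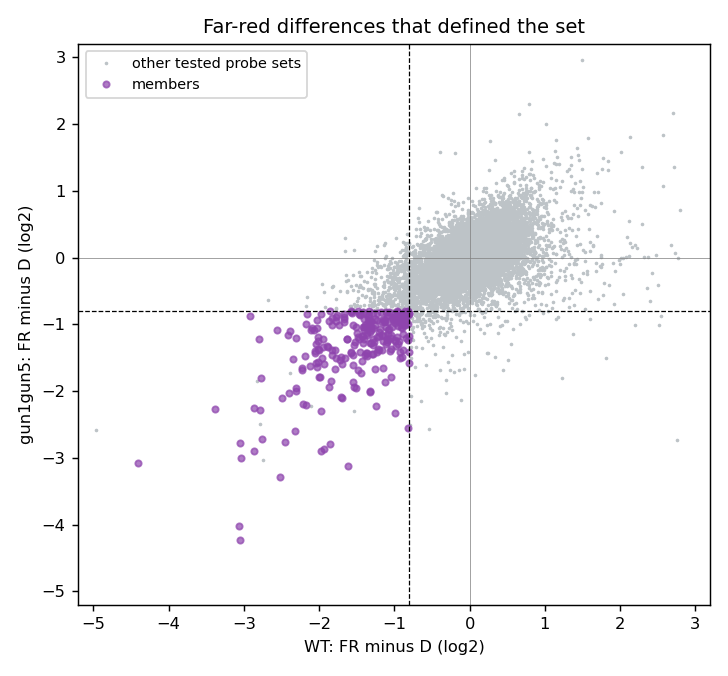
FR minus D in gun1gun5 (vertical) against WT (horizontal), both as log2 differences, for the 259 members and the other tested probe sets. Dashed lines mark -0.8, the threshold of the rule, so the members' place in the lower left is set by the choice; they reach -4.22 in gun1gun5 and -4.41 in WT.

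The threshold divided a continuous range. Just inside it, the weaker of both drops was -0.80 in AT1G28400, -0.801 in probe set 248793_at and -0.801 in AT1G77260. Just outside it were probe set 260944_at, whose weaker drop missed -0.8 by less than rounding shows, 247107_at at -0.798 and scpl20 at -0.797.

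The annotation named 1 gene for 108 of the members, several genes for 3 and none for 148. The 108 stood for 107 genes, since AT1G31710 was measured by 2 probe sets, whose differences were -1.53 and -1.15 in gun1gun5 and -1.72 and -1.05 in WT. A symbol beyond the locus number was known for 21 members, and those outside the rule for named genes (AFR, THI2.2, TMT2, RALFL32, ZW9, PRA8, SAH7 and PMEAMT) were named after their values were seen. Genes with only a locus number are given without a role.

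Sugar carriers of the SWEET family gave 3 of the members with a symbol. SWEET proteins let sugars pass across membranes, SWEET11 exporting sucrose towards the phloem and SWEET17 carrying fructose at the vacuole. SWEET17 read 899.4 in phyA_FR, against 925.0 in phyA_D; 247.4 and 255.9 in gun1gun5_FR, against 644.9 and 800.5 in gun1gun5_D; and 199.3 and 188.8 in WT_FR, against 776.5 and 692.9 in WT_D. SWEET11 read 1078.2 in phyA_FR, against 1007.1 in phyA_D; 737.3 and 719.3 in gun1gun5_FR, against 1417.7 and 1541.1 in gun1gun5_D; and 417.4 and 454.9 in WT_FR, against 1167.6 and 1161.4 in WT_D. In both genes the phyA_FR array lay above every FR array of the other genotypes. The same held in 255 of 259 members, since the rule chose low FR levels in those genotypes. SWEET3 was dimmer, with 84.2 in phyA_FR, against 101.5 in phyA_D; 18.4 and 14 in gun1gun5_FR, against 67.6 and 107.7 in gun1gun5_D; and 20.4 and 22.7 in WT_FR, against 85.6 and 64 in WT_D. TMT2, a sugar transporter of the vacuole membrane, had a smaller difference, -0.81 ± 0.13 in gun1gun5 and -0.97 ± 0.13 in WT (SE of the log2 difference, n = 2 arrays a group here and below). Of 8 tested SWEET genes, 3 were members, where membership was 1.46% over all tested probe sets with 1 gene. TMT2 was not on the list that gave this count. The other 5 missed the size or order the rule demanded in at least 1 genotype. SWEET16 differed by -0.63 in gun1gun5 and -0.80 in WT, and SWEET2 by -0.43 in gun1gun5 and -0.85 in WT. SWEET13, SWEET6 and SWEET1 ranged from -0.24 to 0.19 in gun1gun5 and from -0.32 to -0.21 in WT.

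Genes of light and hormone responses came next. AFR is an F-box protein whose loss weakens responses to far-red light. AFR read 244.8 in phyA_FR, against 360.8 in phyA_D; 146.3 and 159.7 in gun1gun5_FR, against 320.1 and 441.3 in gun1gun5_D; and 156.4 and 107.9 in WT_FR, against 350.4 and 327.5 in WT_D. XERICO, a RING-type protein that raises abscisic acid when overproduced, read 281.3 in phyA_FR, against 241.3 in phyA_D; 137.0 and 155.9 in gun1gun5_FR, against 262.8 and 274.7 in gun1gun5_D; and 137.5 and 124.7 in WT_FR, against 282.0 and 255.7 in WT_D. As the rule required, the FR and D arrays did not overlap within gun1gun5 or WT in either gene. The phyA_FR array was the highest FR array in both. This held in 255 of 259 members, whose FR levels in gun1gun5 and WT the rule had chosen to be low. BAT1, an acyltransferase linked to brassinosteroid inactivation, differed by -1.18 ± 0.12 in gun1gun5 and -1.21 ± 0.12 in WT. GH3.17, which joins auxin to amino acids, differed by -0.87 ± 0.15 in gun1gun5 and -1.09 ± 0.15 in WT. RALFL32, a member of the RALF family of signalling peptides, differed by -1.06 ± 0.13 in gun1gun5 and -1.08 ± 0.13 in WT.

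Small secreted defence peptides and wall proteins were also among the named members. LCR68, of the plant defensin family, read 581.9 in phyA_FR, against 927.4 in phyA_D; 85.1 and 120.0 in gun1gun5_FR, against 348.0 and 361.7 in gun1gun5_D; and 160.1 and 244.4 in WT_FR, against 743.0 and 700.8 in WT_D. THI2.2, a thionin, which is another class of antimicrobial peptide, read 1010.0 in phyA_FR, against 1521.2 in phyA_D; 634.0 and 753.6 in gun1gun5_FR, against 1089.3 and 1551.8 in gun1gun5_D; and 385.0 and 527.4 in WT_FR, against 1425.7 and 1523.3 in WT_D. Both peptide genes were lower in phyA_FR than in phyA_D. EXPB3, an expansin that loosens cell walls, read 172.9 in phyA_FR, against 244.5 in phyA_D; 21.2 and 24.7 in gun1gun5_FR, against 40.2 and 70.4 in gun1gun5_D; and 25.1 and 37.2 in WT_FR, against 189.8 and 197.9 in WT_D. Its D level was higher in WT than in gun1gun5, and the FR levels lay close together. PRXR1, a peroxidase, differed by -0.89 ± 0.16 in gun1gun5 and -1.77 ± 0.16 in WT. BGLU19, a beta-glucosidase, differed by -1.42 ± 0.24 in gun1gun5 and -1.37 ± 0.24 in WT.

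The remaining named members ranged over metabolism, proteolysis and chromatin. CP1, a cysteine proteinase, differed by -1.5 ± 0.20 in gun1gun5 and -1.77 ± 0.20 in WT. PMEAMT, a methyltransferase of phosphocholine synthesis, differed by -1.26 ± 0.21 in gun1gun5 and -1.52 ± 0.21 in WT. AT2G26690 (NPF6.2), of the nitrate and peptide transporter family, differed by -2.0 ± 0.15 in gun1gun5 and -2.31 ± 0.15 in WT. Its level was 201.7 and 241.7 in gun1gun5_FR, against 840.5 and 1026.5 in gun1gun5_D, and 181.3 and 150.4 in WT_FR, against 875.9 and 893.3 in WT_D. HIS1-3, a linker histone variant, differed by -1.09 ± 0.21 in gun1gun5 and -1.40 ± 0.21 in WT. PRA8, of a family that acts in vesicle traffic, differed by -0.99 ± 0.13 in gun1gun5 and -0.89 ± 0.13 in WT. ECS1, SAH7 and ZW9 differed by between -1.73 and -1.04 in gun1gun5 and between -1.44 and -1.37 in WT.

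**Figure D3:**
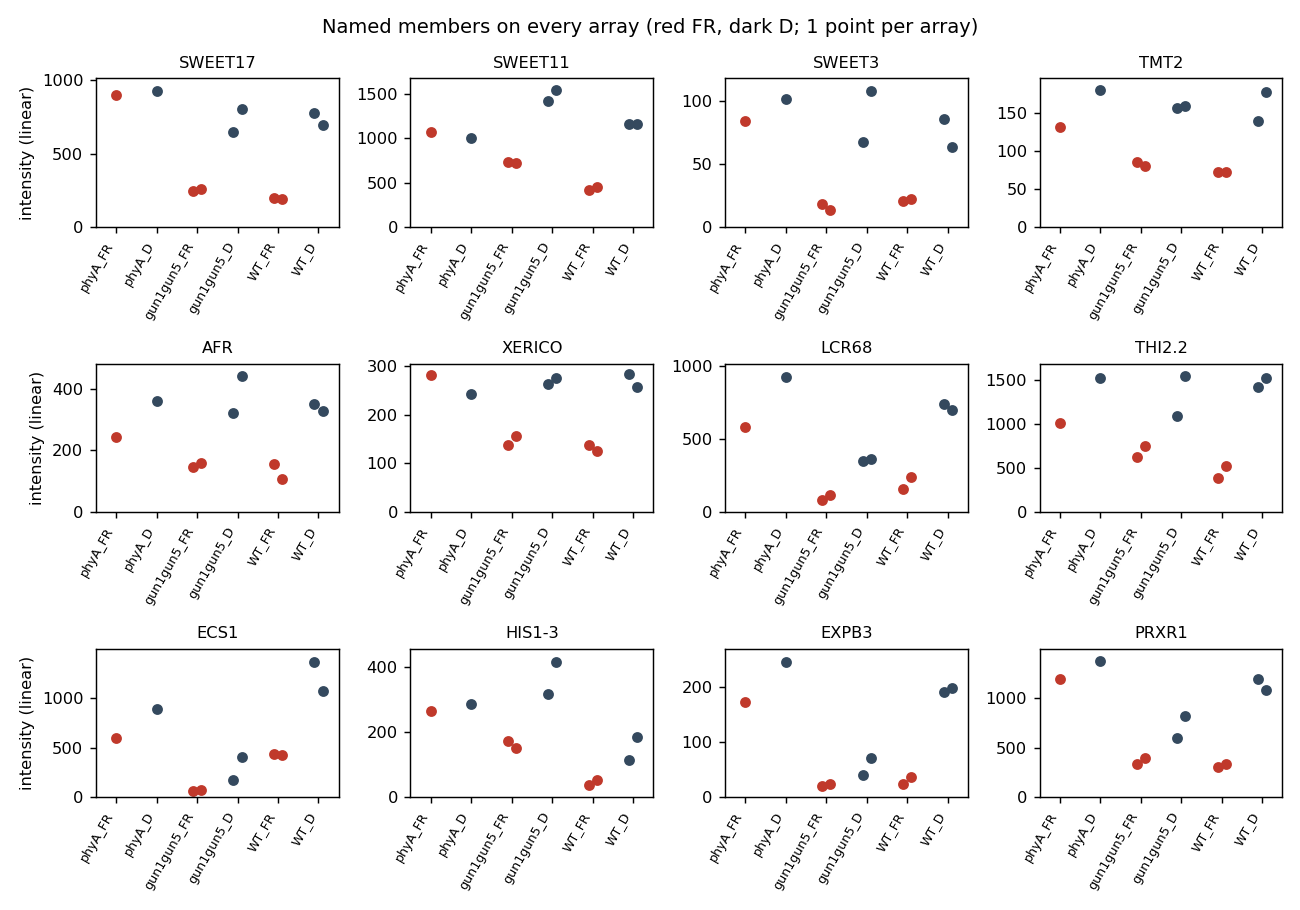
Linear intensity of 12 named members on every array, red for FR and dark for D, with 1 point per array and each axis starting at 0. In gun1gun5 and WT the red points lie below the dark ones in every panel, as the rule required; in SWEET17 the phyA_FR point (899.4) lies near phyA_D (925.0).

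The largest drops were in genes known only by locus and in unnamed probe sets. AT1G09310 read 1989.1 in phyA_FR, against 2324.0 in phyA_D; 49.6 and 89.5 in gun1gun5_FR, against 580.3 and 1086.5 in gun1gun5_D; and 208.3 and 579.6 in WT_FR, against 1978.1 and 2183.0 in WT_D. AT1G27030 read 559.8 in phyA_FR, against 388.6 in phyA_D; 32.9 and 31.8 in gun1gun5_FR, against 288.1 and 565.5 in gun1gun5_D; and 85.7 and 87.1 in WT_FR, against 306.0 and 289.1 in WT_D. The drop of AT1G27030 was -3.12 ± 0.24 in gun1gun5 and -1.61 ± 0.24 in WT. Its gun1gun5_FR arrays lay lowest of all, and gun1gun5_D replicate 2 lay above both WT_D arrays. Probe set 262312_at, which has no gene in the annotation, read 1127.2 in phyA_FR, against 1336.2 in phyA_D; 79.8 and 87.5 in gun1gun5_FR, against 743.6 and 918.5 in gun1gun5_D; and 33.9 and 50.2 in WT_FR, against 1158.4 and 1252.4 in WT_D. It had the largest WT difference of all members, -4.41 ± 0.16. Probe set 248790_at had the largest gun1gun5 difference, -4.22 ± 0.22.

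Some members reached the bottom of the scale after far-red light. Both gun1gun5_FR arrays read under 16 in 31 members and both WT_FR arrays in 18. AT3G53980 is one of them in both genotypes, with 3.7 and 5.0 in gun1gun5_FR, against 36.4 and 148.5 in gun1gun5_D, and 6.6 and 3.5 in WT_FR, against 73.5 and 89.5 in WT_D. Measured against 16 as the floor, the D means were at least 5.78-fold higher in gun1gun5 and at least 5.09-fold higher in WT. In phyA the gene read 158.8 in FR, against 149.4 in D.

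A few members lay close to each other in the genome. By RefSeq gene order, AT1G55240 and AT1G55265 had 2 protein-coding genes between them, and AT4G30450 and AT4G30470 had 1. No sequences are shown, because no promoter or protein sequences were used here.

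The phyA FR minus D difference was not used by the rule. It was used to ask whether the same probe sets moved with far-red light in a mutant without phytochrome A. The level of the phyA arrays did enter the choice, through the filter on the mean over all arrays. With that mean taken over the 8 WT and gun1gun5 arrays, the rule gave 254 members, all among the 259. The members' median FR minus D difference in phyA was -0.25, with quartiles of -0.46 and -0.04, against 0.01 over all tested probe sets. It was below 0 in 214 of 259 members (82.6%), against 47.4% of all tested probe sets. A shift below 0 was not particular to the members. In 409 probe sets that met the rule's demands in WT but not in gun1gun5, the phyA median was -0.18, with 76.5% below 0. In 170 that met them in gun1gun5 but not in WT, the phyA median was -0.14, with 70.6% below 0. A difference of at most -0.8, the size that the rule demanded of gun1gun5 and WT, was present in 16 members (6.18%), against 0.403% of all tested probe sets. Per member, the phyA difference was a median 0.19 of the mean of the other 2 drops. With 1 array a group, limma assumed that the lone arrays vary like the others, and it called none of the members and 0.0% of all tested probe sets at an adjusted p under 0.05. Without adjustment, 31 members had p under 0.05, all lower in FR, where 2.29% of all tested probe sets were. The lowest adjusted p among members was 0.63. In simulated data, where the spread was smoothed over level, the same fit recovered 91% of 1-log2 changes and 14% of 0.5-log2 changes in phyA. Differences of the members' median size were thus not detectable one by one. The median SE in phyA was 0.26 in the members, against 0.2 over all tested probe sets. The simulated shares therefore need not hold for the members, and 1-log2 changes could have been missed.

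**Figure D4:**
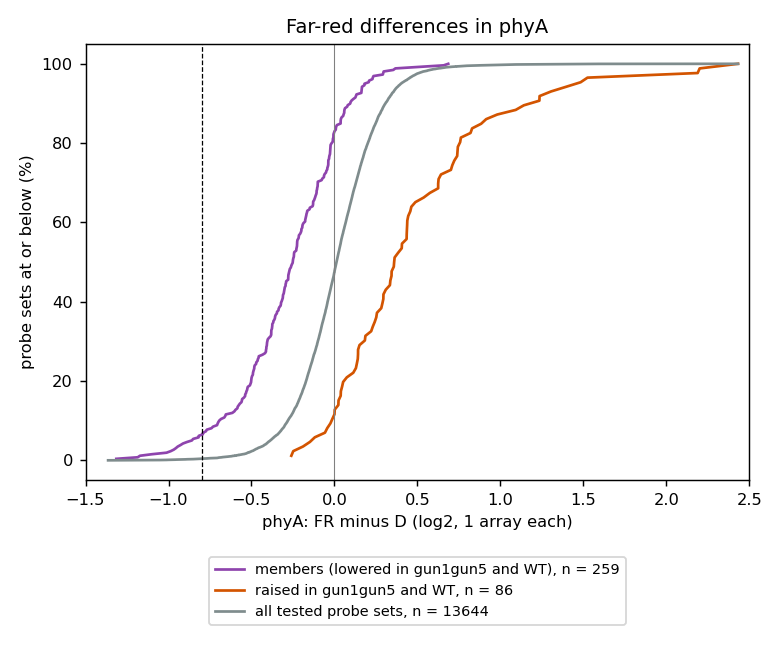
Cumulative share of probe sets by their FR minus D log2 difference in phyA (1 array each), for the 259 members, 86 probe sets raised in gun1gun5 and WT by the same rule with the sign turned, and all 13644 tested probe sets. The members' curve lies left of the curve of all tested probe sets, with 82.6% of members below 0, and the dashed line marks -0.8.

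The phyA_FR array was also placed among the arrays of the other genotypes, whose FR levels the rule had chosen to be low and whose D levels to be high. It lay above all 4 FR arrays of gun1gun5 and WT in 255 of 259 members, against 27.6% of all tested probe sets. It was at or above the lowest of the 4 D arrays in 192 members (74.1%), against 78.4% of all tested probe sets. In 63 members (24.3%, against 2.15% of all tested probe sets) it lay between the FR and the D arrays, and in 25 (9.65%, against 21.1%) it was above all 4 D arrays. The phyA_D array was above all 4 D arrays in 69 members (26.6%, against 18.3%) and below the lowest in 23 (8.88%, against 22.3%). These positions are a description, since the rule set the order of the arrays they are read against.

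The size of the phyA difference was only weakly related to the size of the drop that chose a member. From the largest to the smallest drops in 4 bins, the phyA medians were -0.26, -0.31, -0.24 and -0.19, and 7, 6, 3 and 0 members reached -0.8. Spearman's rho between the phyA difference and the mean drop was 0.15 over the 259 members, which share arrays. Probe sets higher in FR than in D in both gun1gun5 and WT, by the rule with the sign turned, had a phyA median of 0.36. The median over all tested probe sets was 0.01. In phyA, 76 of those 86 were above 0, against 7125 of the 13644 tested probe sets.

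The members with the lowest phyA differences were AT1G64500, AT1G65870, AT3G05730, AT1G55960, AT2G27420, AT5G48490, AT4G33550 and AT5G42760 among those with 1 gene, from -1.01 to -0.77. AT1G64500 read 117.7 in phyA_FR, against 253.6 in phyA_D; 146.0 and 159.1 in gun1gun5_FR, against 322.1 and 270.2 in gun1gun5_D; and 120.6 and 81.5 in WT_FR, against 259.3 and 299.4 in WT_D. In this gene the phyA drop, -1.01 ± 0.24, was close to the gun1gun5 drop of -0.89 ± 0.17 and the WT drop of -1.35 ± 0.17. With 1 array in each phyA group, the phyA SE was taken from the spread in the other groups. AT1G55960 read 393.5 in phyA_FR, against 778.0 in phyA_D; 374.7 and 419.8 in gun1gun5_FR, against 774.8 and 1153.5 in gun1gun5_D; and 281.7 and 133.3 in WT_FR, against 822.1 and 774.2 in WT_D. Among members with 1 gene, the highest phyA differences were in AT2G43535, AT1G27030, AT1G64710, XERICO, AT1G72140, AT3G03870, BAT1 and AT3G57010, from 0.69 to 0.16. AT2G43535 read 308.5 in phyA_FR, against 185.8 in phyA_D; 187.7 and 136.4 in gun1gun5_FR, against 299.1 and 387.4 in gun1gun5_D; and 103.7 and 143.7 in WT_FR, against 462.8 and 232.5 in WT_D. Unlisted members reached further at the low end, to -1.31, and 5 of the 8 highest of all members were unlisted or had several genes, the highest of them at 0.66. None of these phyA differences passed the adjusted test.

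The mean of FR and D in gun1gun5 minus that in WT cancels FR minus D within each genotype, the difference on which the rule was set. It is not fully independent of the rule, because the filter on level and the demand for a drop in both genotypes keep out probe sets near the bottom of the scale in either one. The members' median was -0.12, against 0.01 over all tested probe sets. By limma at an adjusted p under 0.05, 82 members were lower in gun1gun5 (31.7%, against 13.9% of all tested probe sets) and 32 were higher (12.4%, against 13.8%). At least 2-fold differences were found in 22 of the lower and 4 of the higher members. Medium differed between the genotypes in D, and its part was not tested. In FR alone, where the labels give 1 medium, limma called 40 members lower in gun1gun5 (15.4%, against 10.4% of all tested probe sets) and 30 higher (11.6%, against 9.81%). These FR values were used by the rule and are part of the average, so the counts are a description and do not bear on the part of medium.

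**Figure D5:**
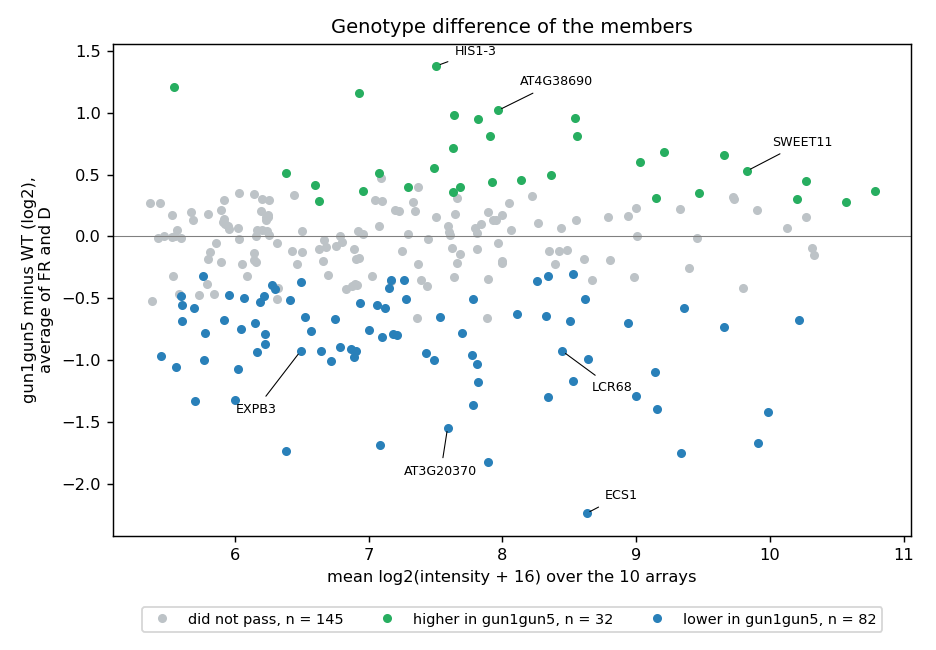
gun1gun5 minus WT, averaged over FR and D (log2), against the mean log2(intensity + 16) over the 10 arrays, 1 point per member. Blue and green points passed limma at an adjusted p under 0.05, 82 lower and 32 higher in gun1gun5, and gray points did not pass.

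ECS1 was the named member with the lowest gun1gun5 level relative to WT. It read 65.2 and 74.5 in gun1gun5_FR, against 438.9 and 426.3 in WT_FR, and 179.5 and 400.3 in gun1gun5_D, against 1354.1 and 1064.5 in WT_D. The averaged difference was -2.24 ± 0.20 (limma, adjusted p = 6.16e-05), and all gun1gun5 arrays lay below all WT arrays. AT3G20370 (-1.55 ± 0.13, limma adjusted p = 4.87e-05) and AT3G22620 (-1.17 ± 0.10, limma adjusted p = 5.67e-05) were lower as well. AT1G09310, AT5G48490, AT4G30470, AT3G48970, LCR68 and EXPB3 were lower too, by averaged differences from -1.75 to -0.93. AT3G48970 and EXPB3 differed little in FR, by 0.08 and -0.27, so their averaged difference rested on D, where medium differed. The call on AT5G48490 (-1.03 ± 0.25, limma adjusted p = 0.0119) was lost without gun1gun5_FR replicate 1, where the difference was -0.96.

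HIS1-3 led the members that were higher in gun1gun5. It read 172.2 and 152.6 in gun1gun5_FR, against 39.3 and 52.8 in WT_FR, and 316.9 and 415.3 in gun1gun5_D, against 116.0 and 184.4 in WT_D. The averaged difference was 1.38 ± 0.15 (limma, adjusted p = 0.000181), with gun1gun5 above WT within each pretreatment. AT3G03870, AT4G38690, AT3G61160, AT1G76460, AT2G21185 and AT3G52060 were higher by 0.66 to 1.21. SWEET11 was higher by 0.53 ± 0.07 (limma, adjusted p = 0.000775), whereas SWEET17 had a difference of 0.16 ± 0.09 that did not pass (limma, adjusted p = 0.237). AT1G55960, at 0.60 ± 0.20 (limma, adjusted p = 0.0427), lost its call without either WT_D array (0.63 without replicate 1, 0.58 without replicate 2), without WT_FR replicate 2 (0.36), without gun1gun5_D replicate 2 (0.46) and without either gun1gun5_FR array (0.64 and 0.57).

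Named families were counted among the members as a description. Membership was 1.46% among tested probe sets with 1 gene and 2.41% among the rest. Of 48 tested genes named for photosynthesis or the thylakoid, many of them plastid-encoded, 0 were members, and LHCB4.2 and LHCB4.3 met the criteria but were left out by name. Of 16 tested expansin and xyloglucan endotransglucosylase genes, EXPB3 was a member, and EXPA8 and XTH32 met the criteria but were left out by name. The lists of 23 tested transcription factors and 9 tested cytochrome P450 genes held 0 members. Nothing is read from these counts.

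Markers of cell types were few in the annotation. PYK10, a root and endoplasmic reticulum body beta-glucosidase, read 2331.8 and 2150.1 in gun1gun5_FR, against 2788.8 and 3135.4 in gun1gun5_D, and 2522.7 and 2660.2 in WT_FR, against 2587.3 and 2812.9 in WT_D. The root-hair expansins EXPA7 and EXPA18 lay between 19.8 and 49.2 on all arrays. RCA, the Rubisco activase of green cells, differed by -0.32 in gun1gun5 and -0.09 in WT. PYK10 differed by -0.40 in gun1gun5 and -0.06 in WT, both smaller in size than the difference the rule demanded. Both genes passed in gun1gun5 (limma, adjusted p = 0.0249 for RCA and 0.0207 for PYK10). Neither passed in WT (limma, adjusted p = 0.455 for RCA and 0.712 for PYK10). FMA, a stomatal lineage factor, lay between 29.5 and 41.4 on all arrays. SPCH, from the same list, was too low to pass the filter. It read 5.7 and 6.5 in gun1gun5_FR, against 4.9 and 7.8 in gun1gun5_D. In WT it read 17.7 and 24.3 in FR, against 6.7 and 12.6 in D. No epidermis or vasculature marker on the lists had a named probe set.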

How the data were processed

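The deposited table holds linear probe-set intensity values of 10 ATH1 arrays. The trimmed mean of each deposited array is about 100.0, as the values show; how the authors summarised and scaled them is not given in the sources used here. Groups follow the labels. Values were transformed to log2(intensity + 16), and a model of 6 group means was fitted to all 10 arrays with limma 3.58.1 in R 4.3.3 (lmFit, eBayes with a variance trend, 4 residual and 6.3 mean prior degrees of freedom). Tests were two-sided, with Benjamini-Hochberg adjustment over the 13644 tested probe sets. The number of arrays limits the precision.

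Genes were named from the platform annotation and RefSeq (TAIR10.1), and all 108 members with 1 gene matched. Named genes, all among members with 1 gene except at the threshold, were the 20 with the largest mean drop, up to 4 per list, the 8 lowest and 8 highest in phyA, up to 8 in each direction of gun1gun5 minus WT, and 3 on either side of the threshold. The members and the gene lists were chosen with earlier results of these data known, and list patterns were corrected after their matches were seen. The fit was tested on simulated data, where 5.41% of phyA calls and 3.54% of gun1gun5 minus WT calls were false. The simulated spread was smoothed over level, so it varied less between probe sets than in the data. The planned count of promoter motifs was not made, as no sequences were used here. Alternatives covered the pseudocount, quantile normalization, the filter, the variance trend, a replicate block, the 8 gun1gun5 and WT arrays alone and each replicate left out.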

Additional observations from a re-analysis of the deposited data

Results flagged for a closer look

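In gun1gun5 and WT every FR array of a member lay below every D array of its genotype, as the rule required. In phyA, 45 of 259 members were higher in FR than in D, against 7125 of 13644 tested probe sets. The phyA side rests on 1 array each, and the difference in direction was not tested. Among the genes named above, the FR minus D log2 difference in phyA was 0.69 in AT2G43535, 0.51 in AT1G27030, 0.30 in AT1G64710, 0.21 in XERICO, 0.21 in AT1G72140, 0.17 in AT3G03870, 0.16 in BAT1 and 0.16 in AT3G57010.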

How the results depend on the processing

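The members' median differences kept their directions under the alternatives run, which for phyA, with 1 array each, says nothing where a gun1gun5 or WT replicate was left out. With a pseudocount of 1 the median drops were -1.43 in gun1gun5 and -1.63 in WT. With a pseudocount of 64 they were -0.85 and -1.0 for gun1gun5 and WT, 8 members reached -0.8 in phyA, and the rule gave 120 members, all among the 259. At this pseudocount 0.125% of all tested probe sets reached -0.8 in phyA. Leaving out 1 replicate moved the median drop to between -1.34 and -1.02 in gun1gun5 and between -1.41 and -1.34 in WT, the gun1gun5 minus WT median to between -0.23 and -0.06, its lower calls to between 55 and 95 and its higher calls to between 22 and 40, and the number of members to between 208 and 318. In FR arrays alone, an alternative chosen after seeing the data and on values the rule used, 40 members were lower in gun1gun5 than in WT and 30 higher. Without the filter on low values, 56 were lower and 27 higher, and AT5G48490 and AT1G55960 lost their calls; AT1G55960 also lost it under quantile normalization (0.56). The median of gun1gun5 minus WT over all tested probe sets, 0.011, was -0.002 without the filter and 0.000 without WT_FR replicate 1. Same-numbered arrays had correlations of their deviations from 0.0643 to 0.188, so the numbers were not taken as pairs. With a replicate block, 95 members were lower and 35 higher in gun1gun5, the phyA median was -0.25 and limma called 0 members in phyA. The cause of these changes was not tested.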
